A study of Mus musculus with 9 samples.

Results

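The 9 genes described here are Vpreb1, Vpreb3, Igll1, Dntt, Rag1, Rag2, Ebf1, Pax5 and Cd79a. They are expressed in lymphocytes of the B lineage at the stage when these assemble their antibody genes, but not all are confined to that stage or lineage. The 9 genes were named as a set with earlier results of these arrays known, and each gene was read by the single-gene probe set chosen by its highest mean over the 9 arrays. All 9 were represented, among 18194 genes with such a probe set. Their group differences describe these arrays and are not independent support for any direction. RNA came from tibial shafts of wild-type CD-1 mice aged 16 to 18 weeks, from which periosteum and marrow had been taken away and surface cells digested off so that osteocytes were enriched. The virgin group was age-matched, the lactation group was taken on day 12 of lactation, and the post-lactation group was taken 7 days after its pups had been removed on lactation day 12. Litters had been set to between 8 and 13 pups. Each of the 3 groups had 3 arrays. The labels do not say whether an array stood for a single mouse or a pool, so errors and p-values measure the spread between these arrays, which may be technical. Groups were taken from the titles. For the post-lactation arrays the source field names virgin mice instead, and 1 sentence of the extraction protocol names femurs.

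B lymphocytes develop in the bone marrow. A precursor first joins the gene segments of the antibody heavy chain, for which the Rag1 and Rag2 proteins cut the DNA and the Dntt enzyme adds bases at the joints. The new heavy chain then reaches the cell surface with a surrogate light chain, made from the Vpreb1 and Igll1 products, and with the signalling chains Cd79a and Cd79b. Ebf1 and Pax5 are transcription factors that set and hold the B lineage programme. In these bulk samples, fewer cells of a type and less RNA per cell cannot be told apart.

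Values are log2 signals summarised by RMA, a method that corrects background and equalises the distributions of arrays processed together. Exactly equal values between arrays divided the arrays into 3 array sets, and every set contained all 3 groups once. Virgin 1 fell in set 1 beside lactation 3 and post-lactation 1. Virgin 2 shared set 2 with lactation 2 and post-lactation 3, and virgin 3 shared set 3 with lactation 1 and post-lactation 2. Array medians ran from 4.32 to 4.82 and were close together within a set. The arrays therefore did not share a common distribution, and offsets between sets enter the group SDs and the SE of the fit without a block. Virgin 1 stood apart from the other arrays. Its level of Sost, an osteocyte-secreted Wnt inhibitor, was 8.14 against 11.59 to 13.55 on the other 8 arrays, and its mean over 10 osteocyte genes was 3.86 log2 units above the array median against 4.91 to 5.67. Osteocyte markers were otherwise plainly present, with 9 of the 10 above a dim level of 4.87 on every array. That dim level was the 40th percentile of the gene means. Results that rest on the virgin group are given with and without virgin 1.

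By these readings, 5 of the 9 genes (Vpreb1, Vpreb3, Igll1, Dntt and Ebf1) were above the dim level on every array. Within each of the 3 array sets, 8 of the 9 genes read higher after weaning than in lactation, as did 12.8% of all genes. The exception, Rag2, was below the dim level on all 9 arrays. None of the 9 passed the limma test without a block, at a Benjamini-Hochberg adjusted p under 0.05 over all genes. With the array set as a block, Vpreb1 and Dntt were called higher after weaning than in lactation, as were 0.539% of all genes. Lactation and virgin arrays overlapped for every member, as they did for most genes. Of 18194 genes, 374 had all lactation values above the virgin values and 127 had all below. The post-lactation excess over virgin mice depended in size on virgin 1, whose values were the lowest of the 9 arrays for Vpreb1, Vpreb3, Igll1, Dntt, Rag1, Ebf1 and Cd79a.

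**Figure D1:**
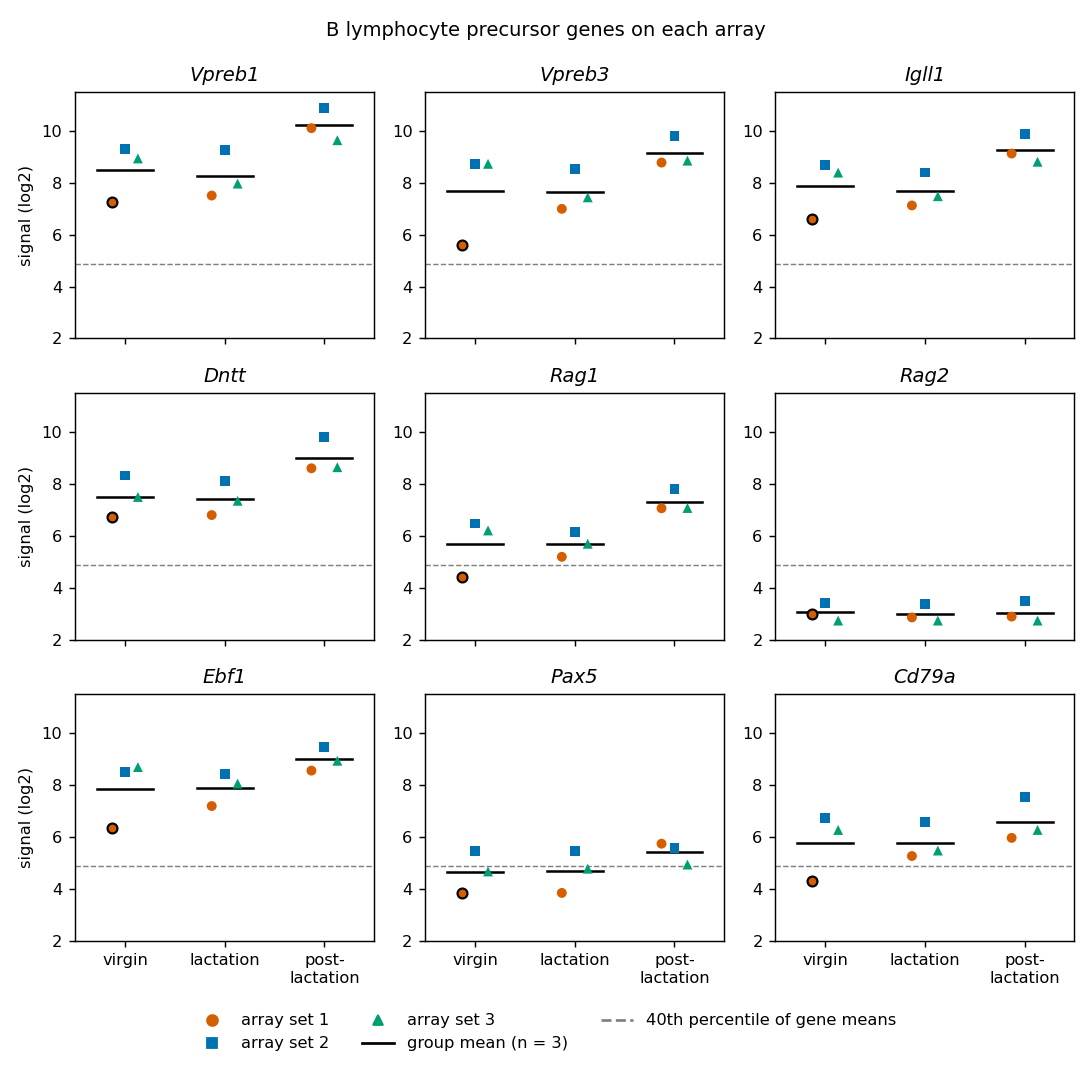
Log2 RMA signal of each of the 9 genes (vertical axes) on every array, by group (horizontal axes), with colour and shape giving the array set, a black outline marking virgin 1, a bar at the mean of 3 arrays and a dashed line at the dim level of 4.87. In the panels of Vpreb1, Vpreb3, Igll1, Dntt and Rag1 all post-lactation points lie above all others, whereas Rag2 stays between 2.73 and 3.48 throughout.

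The surrogate light chain was represented by Vpreb1 and Igll1, and by Vpreb3, a related small protein of B cell precursors. Vpreb1 read 7.26, 9.28 and 8.93 on virgin arrays 1 to 3, 7.96, 9.24 and 7.50 on lactation arrays 1 to 3, and 10.10, 9.63 and 10.89 on post-lactation arrays 1 to 3. The 3 post-lactation values were the highest of the 9, and the virgin and lactation values were interleaved. The group means were 8.49 ± 1.08 in virgin, 8.24 ± 0.90 in lactation and 10.21 ± 0.64 in post-lactation samples (SD, n = 3 each). The post-lactation mean exceeded lactation by 1.97 ± 0.56 (SE of the fit), a 3.92-fold difference. Its limma adjusted p was 0.298 without a block and 0.0464 when the array set was a block. Within sets 1, 2 and 3 the same difference was 2.59, 1.64 and 1.67.

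Igll1 encodes the lambda5 chain, the partner of Vpreb1. Its values were 6.58, 8.67 and 8.39 in virgin, 7.48, 8.39 and 7.12 in lactation, and 9.12, 8.80 and 9.85 in post-lactation arrays, again with every post-lactation array above all others. The post-lactation mean was 9.26 ± 0.54 against 7.66 ± 0.65 in lactation and 7.88 ± 1.13 in virgin samples (SD, n = 3). The difference from lactation was 1.60 ± 0.52 (SE), 3.02-fold, with a limma adjusted p of 0.468, or 0.0854 with the array set as a block. Set by set it came to 2.00, 1.47 and 1.33.

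For Vpreb3 the virgin arrays read 5.61, 8.73 and 8.72, the lactation arrays 7.43, 8.51 and 6.99, and the post-lactation arrays 8.77, 8.85 and 9.79. The groups after weaning and in lactation did not overlap, but virgin 2 and virgin 3 lay just below the lowest post-lactation array, and virgin 1 was far below both. The post-lactation minus lactation difference was 1.49 ± 0.73 (SE), 2.81-fold, with limma adjusted p of 1 without a block and 0.281 with the set block. Within the sets it was 1.78, 1.27 and 1.41.

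A further probe set names both Vpreb1 and its close paralog Vpreb2, so its signal cannot be assigned to either gene. It read 6.15, 8.01 and 7.38 in virgin, 6.33, 7.89 and 6.01 in lactation, and 8.17, 8.15 and 9.65 in post-lactation arrays. The post-lactation mean exceeded lactation by 1.91, close to the value of the probe set of Vpreb1 alone.

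Dntt encodes terminal deoxynucleotidyl transferase, which adds untemplated bases where antibody gene segments are joined. Its signal was 6.71, 8.32 and 7.49 in virgin arrays, 7.35, 8.09 and 6.79 in lactation arrays, and 8.60, 8.64 and 9.79 in post-lactation arrays. The post-lactation arrays were all above the others, and the 3 lactation values lay inside the virgin range. Post-lactation samples averaged 9.01 ± 0.68 and lactation samples 7.41 ± 0.65 (SD, n = 3), a difference of 1.60 ± 0.46 (SE), 3.03-fold. Its limma adjusted p was 0.314 without a block and 0.00325 with the set block, the lowest among the 9 genes. The difference was 1.80, 1.70 and 1.29 in the 3 sets.

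Rag1 encodes the DNA-cutting subunit of the recombinase. Virgin arrays read 4.42, 6.47 and 6.20, lactation arrays 5.69, 6.15 and 5.19, and post-lactation arrays 7.06, 7.07 and 7.78. Virgin 1 was below the dim level, and the post-lactation arrays were again above every other. The means were 5.70 ± 1.12, 5.68 ± 0.48 and 7.30 ± 0.42 in the same order of groups (SD, n = 3). The post-lactation minus lactation difference was 1.63 ± 0.48 (SE), 3.08-fold, with a limma adjusted p of 0.333, which became 0.0556 with the set block and 0.0323 when virgin 1 was left out. Leaving out virgin 1 does not alter these 2 means but lowers the spread the fit estimates for the gene. Set by set the difference was 1.87, 1.63 and 1.38.

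Rag2, the partner subunit of Rag1, gave no level that could be followed. It read 2.99, 3.42 and 2.73 in virgin, 2.73, 3.38 and 2.85 in lactation, and 2.89, 2.73 and 3.48 in post-lactation arrays. All 9 values were below the dim level, and the highest in each group came from set 2. The post-lactation minus lactation difference was 0.04 ± 0.28 (SE), and no fold is given. Rag2 had no other probe set, so the dim reading is that of 1 probe set.

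Ebf1, the factor that starts the B lineage programme, read 6.35, 8.50 and 8.69 in virgin, 8.05, 8.42 and 7.19 in lactation, and 8.55, 8.93 and 9.46 in post-lactation arrays. Post-lactation and lactation arrays did not overlap, while virgin 3 lay above the lowest post-lactation array. The post-lactation mean was 8.98 ± 0.46 and the lactation mean 7.89 ± 0.63 (SD, n = 3), a difference of 1.10 ± 0.55 (SE), 2.14-fold. Its limma adjusted p was 1 without a block and 0.195 with the set block. The difference was 1.36, 1.05 and 0.88 in the 3 sets. Ebf1 is also known in fat and stromal cells, and their part in this signal was not tested.

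Pax5, which holds cells in the B lineage, was dim. It read 3.84, 5.46 and 4.67 in virgin, 4.77, 5.46 and 3.84 in lactation, and 5.74, 4.94 and 5.58 in post-lactation arrays, and the groups overlapped. The virgin and lactation means, 4.66 ± 0.81 and 4.69 ± 0.81 (SD, n = 3), were below the dim level. The post-lactation mean was 5.42 ± 0.42, at least 1.46-fold higher than either of them when they are raised to that level. Most of the measured difference of 0.73 from lactation came from set 1, with 1.90 there against 0.12 in set 2 and 0.16 in set 3.

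Cd79a, the signalling chain carried by B cells from the precursor stage to maturity, read 4.31, 6.74 and 6.27 in virgin, 5.47, 6.57 and 5.26 in lactation, and 5.96, 6.27 and 7.53 in post-lactation arrays. The groups overlapped. The post-lactation mean of 6.59 ± 0.83 stood 0.82 ± 0.61 (SE) above the lactation mean of 5.77 ± 0.70 (SD, n = 3), 1.76-fold, with limma adjusted p of 1, or 0.322 with the set block. Its differences by set were 0.70, 0.96 and 0.79, of like size in all 3.

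The count of members can be read against all genes. In post-lactation against lactation, the limma test without a block called 0 of 9 members, while it called 0.0165% of all genes higher and 0.693% lower. An unadjusted p under 0.05 with a higher value was found for 4 of 9 (Vpreb1, Igll1, Dntt and Rag1) and for 1.57% of all genes. The set block called 2 of 9, against 0.539% of genes called higher and 2.99% lower. Non-overlapping groups with the post-lactation group higher were found for 6 of 9 members and 3.26% of genes, and a higher value within all 3 sets for 8 of 9 and 12.8%. Without virgin 1 the test called Rag1 alone among the members and 0.0605% of genes higher. With both the set block and virgin 1 left out, an alternative chosen after seeing the data, it called 6 of 9 (Vpreb1, Vpreb3, Igll1, Dntt, Rag1 and Ebf1) and 1.34% of genes. The median difference was 1.49 over the members and 0.00 over all genes.

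**Figure D2:**
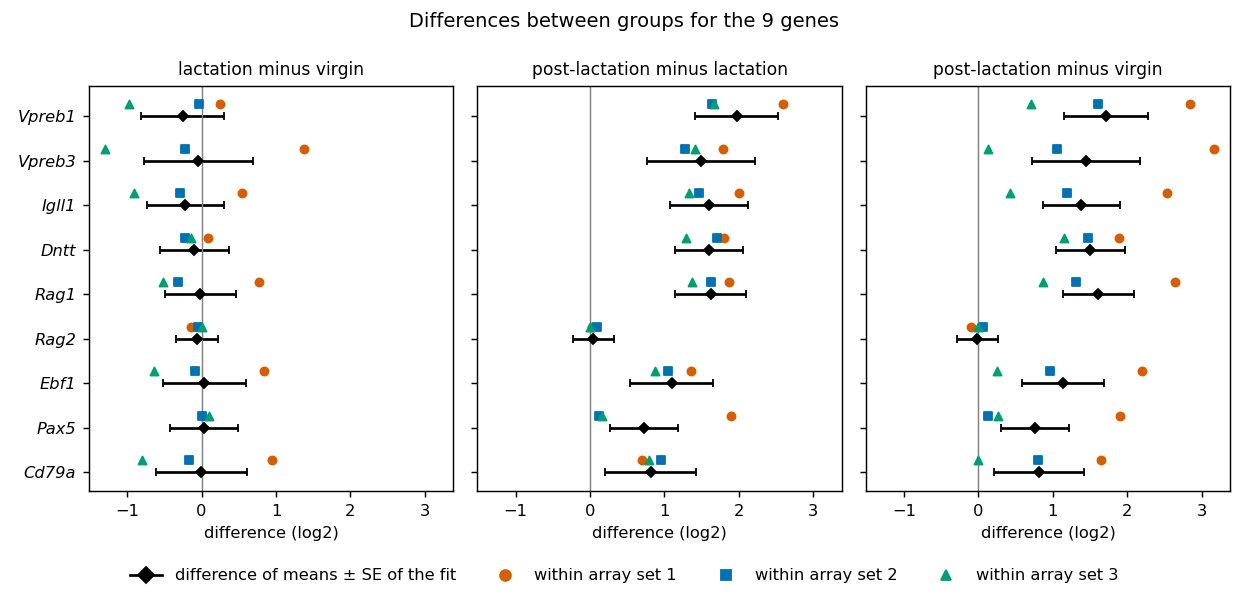
Differences in log2 signal (horizontal axis) for each of the 9 genes (vertical axis) in the 3 comparisons, with the difference of group means and its SE from the fit (black) and the difference within each array set (colours). After weaning against lactation the estimates lie between 0.04 and 1.97, and against virgin mice the values of set 1, which holds virgin 1, lie furthest to the right for 8 genes.

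Against virgin mice the post-lactation differences had similar sizes but were less even between sets. Vpreb1 differed by 1.72 ± 0.56 (SE), 3.29-fold, with 2.84, 1.61 and 0.70 in sets 1 to 3, and by 1.10 without virgin 1. For Igll1 the difference was 1.38 ± 0.52, 2.60-fold, with 2.54, 1.18 and 0.42 by set, and 0.73 without virgin 1. Vpreb3 differed by 1.45 ± 0.73, 2.73-fold, but by 3.16 in set 1, 1.06 in set 2 and 0.12 in set 3, and by 0.41 without virgin 1.

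Apart from the dim Rag2, Dntt was the most even between sets in this comparison, at 1.88, 1.48 and 1.15, with a difference of 1.50 ± 0.46 (SE), 2.83-fold, and 1.10 without virgin 1. Its limma adjusted p was 0.0215 with the set block and 0.0994 with the block and without virgin 1. Rag1 differed by 1.61 ± 0.48, 3.04-fold, with a limma adjusted p of 0.993, and by 0.97 without virgin 1. Ebf1 differed by 1.13 ± 0.55, 2.20-fold, and by 0.39 without virgin 1, and Cd79a by 0.82 ± 0.61, 1.76-fold, and by 0.08 without it. Pax5 was at least 1.46-fold higher, with a difference of 0.76, or 0.36 without virgin 1. Rag2 differed by -0.02.

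In this comparison the test without a block called 0 of 9 members, 0.0055% of genes higher and 0.17% lower. An unadjusted p under 0.05 with a higher value was found for the same 4 members as against lactation and for 0.835% of genes, and the set block called Dntt and 0.0275% of genes higher. The 2 comparisons share the post-lactation arrays. Post-lactation values lay above all virgin values for 5 of 9 members (Vpreb1, Vpreb3, Igll1, Dntt and Rag1) and 1.17% of genes, and for the same 5 without virgin 1, against 2.75% of genes. A higher value within all 3 sets was found for 7 of 9 and 5.91%. The median over the members was 1.38, and 0.41 without virgin 1.

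Between lactation and virgin samples 7 of the 9 members had a lower mean in lactation and 2 a higher one. The differences ran from -0.25 for Vpreb1 to 0.04 for Ebf1, each with a limma adjusted p of 1. The limma test called 0 of 9 members and 0% of all genes. An unadjusted p under 0.05 was found for 0 members, against 1.51% of genes higher and 0.291% lower in lactation. The set block also called 0 members, against 0.022% of genes higher and 0 lower. By set the median difference of the members was 0.54 in set 1, -0.16 in set 2 and -0.64 in set 3. Without virgin 1 every member read lower in lactation, from -0.09 for Rag2 to -1.08 for Vpreb3, with a median of -0.71. The groups then did not overlap for Vpreb3, Rag1 and Ebf1, as for 5.66% of all genes, and 0 members passed the test.

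The upstream sequences of Vpreb1, Igll1, Rag1 and Dntt are shown because these 4 genes had the largest differences between post-lactation and lactation samples, and because E proteins and Ebf1 are known regulators of such genes. Each run is the 250 bases before the annotated start, written 5′ to 3′ on the gene's strand, from RefSeq on GRCm38.p6. Capitals mark matches on either strand to the E box CAGNTG, bound by E proteins, and to CCCNNGGG, the core of the Ebf1 motif. Vpreb1 lies at chr16:16869256-16869505 and Igll1 at chr16:16863986-16864235, both on the minus strand. Rag1 lies at chr2:101649533-101649782 on the minus strand, and Dntt at chr19:41029025-41029274 on the plus strand.
Vpreb1: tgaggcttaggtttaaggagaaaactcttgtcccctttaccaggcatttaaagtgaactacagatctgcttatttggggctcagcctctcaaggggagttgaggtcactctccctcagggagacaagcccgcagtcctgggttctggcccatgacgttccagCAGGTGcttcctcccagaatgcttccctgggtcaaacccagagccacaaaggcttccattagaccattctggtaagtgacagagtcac
Igll1: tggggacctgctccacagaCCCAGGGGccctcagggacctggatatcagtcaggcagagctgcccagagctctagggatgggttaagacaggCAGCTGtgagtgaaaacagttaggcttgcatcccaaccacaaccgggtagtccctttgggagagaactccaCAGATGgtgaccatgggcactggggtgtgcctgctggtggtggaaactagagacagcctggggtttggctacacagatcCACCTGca
Rag1: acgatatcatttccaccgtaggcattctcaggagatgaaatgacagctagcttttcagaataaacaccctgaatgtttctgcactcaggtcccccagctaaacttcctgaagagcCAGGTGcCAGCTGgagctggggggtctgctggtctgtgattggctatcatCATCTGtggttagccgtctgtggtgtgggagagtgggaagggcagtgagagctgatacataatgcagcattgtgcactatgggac
Dntt: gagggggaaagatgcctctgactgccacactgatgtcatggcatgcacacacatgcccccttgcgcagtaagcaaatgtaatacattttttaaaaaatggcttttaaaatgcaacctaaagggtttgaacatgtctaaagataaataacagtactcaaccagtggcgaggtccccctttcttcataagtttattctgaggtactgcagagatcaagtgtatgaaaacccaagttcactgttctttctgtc

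The E box was found 3 times in the windows of Rag1 and of Igll1 and once in that of Vpreb1, 88 bases before the start. The window of Dntt held neither motif. Among all 9 genes, which have 10 windows because Ebf1 has 2 annotated starts, 5 windows held the E box, against 44.8% of the 32841 mouse windows of this length. The Ebf1 core was found in 1 of the 10, at 231 bases before the start of Igll1, against 11.8% of all windows. A match describes letters only, and these arrays did not measure binding.

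The 9 genes had 17 single-gene probe sets in all, which read the same genes at other places. Of the 8 that were not used above, 7 had a higher mean after weaning than in lactation, with differences from -0.06 to 1.71 and a median of 0.72. Among all genes, 9083 of 18194 had a higher mean in that comparison. None of the 8 probe sets was called without a block, and 1 was called with the set block. With that block 0.539% of all genes were called higher, and the share over all probe sets is not given here. The probe set called was a second one of Dntt, with a difference of 1.71 ± 0.40 (SE) and a limma adjusted p of 0.016 with the set block. The 3 other Ebf1 probe sets above the dim level gave 0.90, 0.85 and 0.61, and the dim one gave -0.06. Dim further probe sets gave 0.84 for Dntt, 0.26 for Pax5 and 0.14 for Igll1. Against virgin samples all 8 had a higher mean after weaning, with a median of 0.75, as did 9187 of 18194 genes. In lactation 4 of 8 read higher than in virgin samples, as did 9476 of the genes.

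**Figure D3:**
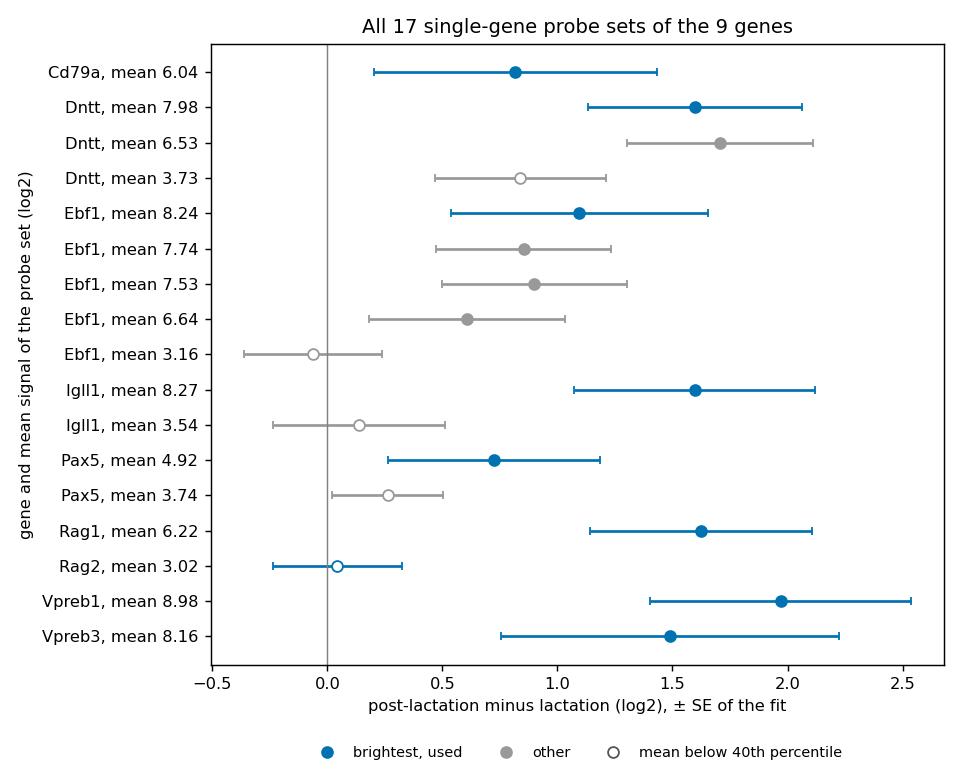
Post-lactation minus lactation difference in log2 signal with its SE (horizontal axis) for all 17 single-gene probe sets of the 9 genes (vertical axis, with the mean signal of each), blue for the one used and open where the mean was below the dim level. All readings to the right of 1 belong to Vpreb1, Vpreb3, Igll1, Dntt, Rag1 and Ebf1, and the 5 open points lie between -0.06 and 0.84.

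The genes varied together from array to array. Over the 9 arrays, and on values above the array median, the 28 pairs that leave out Rag2 had Pearson correlations from 0.70 (Pax5 and Cd79a) to 0.99 (Vpreb1 and Igll1), with a median of 0.89. The pairs were correlated from 0.55 to 0.99 without virgin 1, and from 0.65 to 0.99 once values were centred within array sets. The 8 pairs with Rag2 ran from -0.30 to 0.17. These correlations share the same arrays and are given as a description. The mean of the 9 genes was 1.02, 2.47 and 2.33 above the array median in virgin arrays, 1.76, 2.32 and 1.54 in lactation arrays, and 3.07, 2.75 and 3.44 in post-lactation arrays.

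The genes with the most similar pattern were sought among 11164 genes with a group mean above the dim level, by Pearson's r over the 9 arrays with that mean of the members. The first 10 were Blnk (0.979), Cd72 (0.978), Pafah1b3 (0.969), Cd79b (0.965), Spib (0.960), Pcp4l1 (0.959), Siglecg (0.958), Dbp (0.952), Slc12a3 (0.951) and Pou2af1 (0.951). Blnk and Cd79b belong to receptor signalling in B cells, Cd72 and Siglecg are B cell surface proteins, and Spib and Pou2af1 are transcription regulators of lymphocytes. The remaining genes, Pafah1b3, Pcp4l1, Dbp and Slc12a3, are not assigned to B cells here. Of these 10, 5 were again among the first 10 without virgin 1 and 3 when values were centred within array sets. The 3 were Siglecg, Cd72 and Pafah1b3. After that centring Blnk ranked 14, Spib 40, Cd79b 41 and Pou2af1 56, so the order depended on the array sets.

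Other genes of the same developmental path were followed in lists. Of 12 genes that carry the pre-B receptor signal, 11 had a higher mean after weaning than in lactation, with a median difference of 0.44 and 0 called without a block. Blnk, the adaptor below the receptor, read 7.73, 8.53 and 7.54 in lactation and 9.04, 8.99 and 10.06 after weaning, a difference of 1.43 ± 0.62 (SE) with adjusted p of 0.894. Cd79b, the partner chain of Cd79a, differed by 1.24 ± 0.61 with adjusted p of 1. Cd24a, a surface protein of precursor B cells that red cell precursors also carry in quantity, went the other way, with a difference of -0.84 and a limma adjusted p of 0.474, or 0.00752 with the set block. The set block called Syk higher and Cd24a lower in this list.

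Of 23 early lymphoid receptors and regulators, 21 had a higher mean after weaning, with a median of 0.59 and 0 called without a block. Il7r, the receptor chain for the cytokine that B cell precursors need, read 7.09, 7.52 and 7.04 in lactation and 8.51, 7.97 and 8.43 after weaning, without overlap. Its difference was 1.09 ± 0.24 (SE), 2.13-fold, with a limma adjusted p of 0.0834, or 0.0158 with the set block, and against virgin samples it was 0.99, or 0.89 without virgin 1. Il7r and Irf8 were the 2 genes of the list called with the set block. Bach2 and Pou2af1 differed from lactation by 1.14 and 1.19, each with adjusted p of 1.

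The enzymes that close the DNA breaks made by the recombinase were divided in direction. Of 9 end-joining genes, 4 had a higher mean after weaning than in lactation, with a median of -0.02, and the set block called Prkdc lower, at -0.50. Among 8 signals of the marrow niche, 6 had a higher mean, with a median of 0.38. Il7, the ligand of Il7r, differed by 0.53 ± 0.29 (SE) with adjusted p of 1. Itga4, an integrin chain by which marrow cells hold to stroma, differed by -1.13 and was called lower with the set block, at an adjusted p of 0.00938.

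Markers of other cells were set beside these results, and their part in them was not tested. Of 16 mature B cell genes, 12 had a higher mean after weaning than in lactation, with a median of 0.22 and 0 called with or without the set block. Their summed level, as a mean above the array median, ran from 1.06 to 1.76 in virgin, 1.45 to 1.99 in lactation and 1.63 to 2.18 in post-lactation arrays, so the groups overlapped. Fcrla and Ms4a1 differed by 1.03 and 0.56, each with adjusted p of 1. Of 7 plasma cell genes, 5 had a higher mean, with a median of 0.09, and Mzb1, at 0.87, was called with the set block.

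Thymic precursors also use Rag1 and Dntt. Of 13 genes of T cells and thymic precursors, 6 were below the dim level on every array, namely Cd3g, Cd8a, Cd8b1, Ptcra, Gata3 and Themis, and 8 had a higher mean after weaning than in lactation, with a median of 0.06. Cd3d differed by 1.16 ± 0.29 (SE) with adjusted p of 0.171, or 0.0733 with the set block. Of 8 genes of plasmacytoid dendritic cells, 6 had a higher mean, with a median of 0.35. Ly6d, which B cell precursors also express, differed by 1.43 and was called with the set block, at an adjusted p of 0.0213.

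The neutrophil list, a marrow lineage above the dim level for 15 of 15 genes on every array, had a median difference of 0.26, with 8 of 15 higher and 0 called without a block. Post-lactation values lay above all lactation values for 6 of its 15 genes and below them for 2, against 593 and 796 of 18194 genes. The largest differences were 1.00 for Mmp8, 0.96 for Cxcr2 and 0.64 for Ltf, none called with or without the set block. Camp, an antimicrobial granule peptide, was called higher with the set block, at a difference of 0.45 and an adjusted p of 0.0369. The list's mean above the array median was highest in virgin 1, at 7.90, the array where 7 of the 9 members were lowest. The erythroid list went in the opposite direction to the members after weaning. All 13 genes had lower means than in lactation, with a median of -4.74, and 11 fell by the limma test without a block, or 12 with the set block. Slc4a1, the red cell anion exchanger, fell by 5.47 from lactation. Against virgin samples all 13 had lower means, with a median of -3.48, and 9 were called lower by the limma test without a block. Of 14 cell division genes, all had lower means after weaning than in lactation, with a median of -0.70, and Rrm2 fell by 1.42 with an adjusted p of 0.0192. The set block called 7 of the 14 lower. The osteocyte list had a median of 0.01 and 0 genes called with or without the set block.

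**Figure D4:**
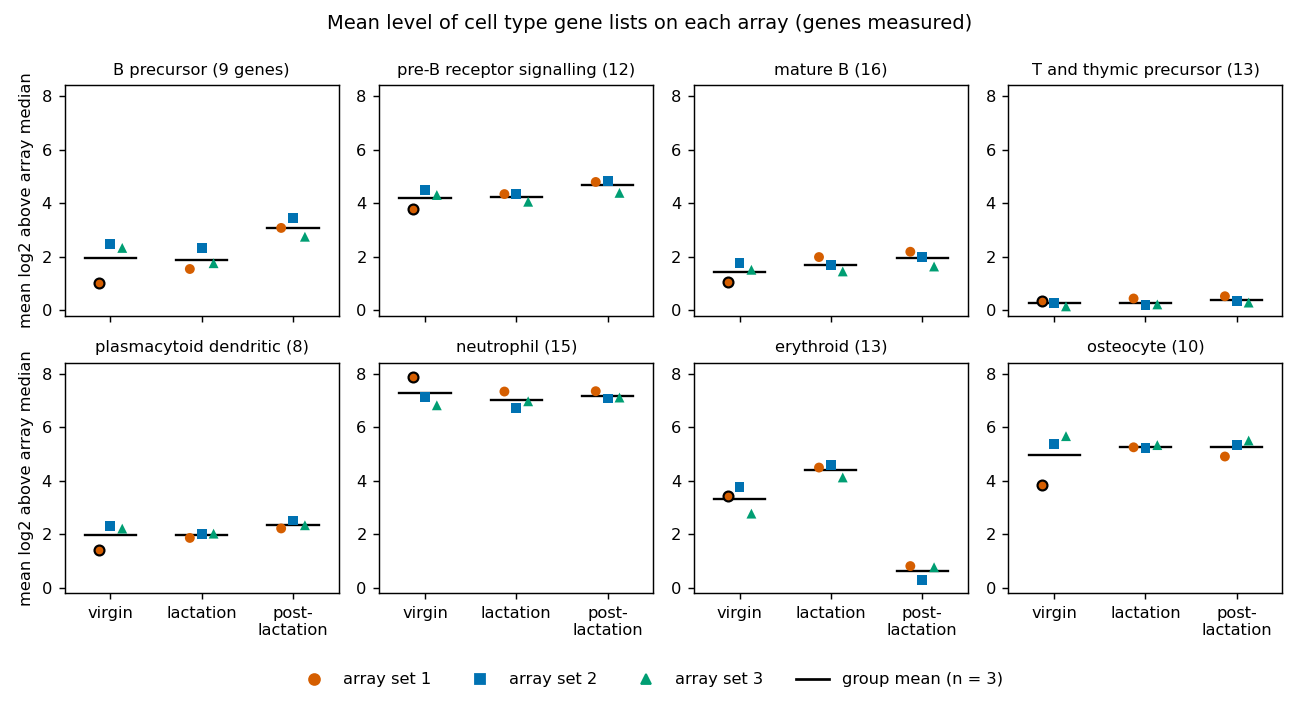
Mean log2 signal above the array median (vertical axes) of 8 gene lists on each array, by group (horizontal axes), with colour and shape giving the array set, a black outline marking virgin 1 and a bar at the group mean of 3 arrays. The B precursor panel runs from 1.02 in virgin 1 to 3.44 after weaning, the T cell panel stays between 0.14 and 0.52, and the erythroid panel lies between 0.30 and 0.82 after weaning.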

How the data were processed

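The deposited table held log2 values made with RMA, per the submitters' processing notes, 1 for each of 45101 probe sets and 9 arrays. The version of RMA and filters, if any, were not given in the sources used here. None was missing, and values ran from 1.55 to 14.9. By the array's annotation, 34958 probe sets named 1 gene, 932 several and 9211 none. The brightest single-gene probe set stood for each of 18194 genes, which was a choice for 9012 of them.

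The tests used limma 3.58.1 under R 4.3.3 (group means, lmFit and eBayes without trend, 6 residual degrees of freedom). A Benjamini-Hochberg adjusted p under 0.05 was a call. The fit was run on simulated data with independent genes, which lacked an outlying array and the correlation within sets given below. That run checked the code and does not show how the test performs on these arrays. Array sets were inferred from exactly equal values. Equal values made up 2.50% to 2.72% of probe sets in pairs within set 1, and 36.1% to 44.1% within sets 2 and 3. At most 2 probe sets were equal in a pair between sets. Deviations from group means correlated from 0.47 to 0.73 within sets. All same-numbered arrays of different sets correlated below 0. Deviations in a group sum to 0, so positive correlations within sets push the others below 0. The signs therefore cannot show whether replicate numbers pair the arrays.

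The members and 12 further lists were chosen with earlier results of these data known. Of 172 genes written, 157 were measured. The text names all members and the 10 genes most like them. In each other list, genes called (up to 4) were picked, or else up to 3 with the largest difference above the dim level. Not every gene so picked is named. Genes called only with the array set as a block, Cd24a among them, and the per-array values of Il7r were chosen after their values were seen. A fold is 2 raised to the log2 difference, and a mean under 4.87 was raised to it, giving "at least". The precision is limited by 3 arrays per group. Alternatives were blocks, arrays left out, other scalings, probe set means and filters.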

Additional observations from a re-analysis of the deposited data

Results flagged for a closer look

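The probe set that names Vpreb1 and Vpreb2 together belongs to no gene in the tests, and it carried the same direction. Its mean was 8.66 ± 0.86 after weaning, 7.18 ± 0.94 in virgin and 6.74 ± 1.00 in lactation samples (SD, n = 3 each). The post-lactation mean exceeded the virgin controls by 1.48 on the log2 scale. The probe set is listed because its lowest post-lactation value, 8.15, lay above its highest virgin value, 8.01. Among the genes tested, 1.17% had post-lactation values above all virgin values. It was not tested.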

How the results depend on the processing

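With the array set as a block the number of genes called went from 0 to 4 in lactation against virgin, from 129 to 642 after weaning against lactation, and from 32 to 82 against virgin, and the members called became 2 of 9 and 1 of 9 in the last 2 comparisons. With that block and without virgin 1, which was added after seeing the data, 927 and 4 genes were called after weaning against lactation and virgin, and 6 members against lactation. Without array set 1 both counts of genes were 0. Quantile normalization called 1 gene in lactation against virgin and 200 after weaning against lactation, and subtraction of array medians called 1 in lactation against virgin. The mean of a gene's probe sets lowered the members' median difference from lactation to 0.87. The cause of these changes was not tested.

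The replicate number as a block called 0 members in every comparison and 0, 118 and 33 genes in lactation against virgin and after weaning against lactation and virgin. Whether these numbers pair the arrays could not be told from the correlations.

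When 1 array was left out at a time, the genes called after weaning ranged from 76 (without lactation 2; 80 without post-lactation 2) to 138 against lactation and from 13 (without post-lactation 1 or 2) to 34 against virgin. They were 16 without post-lactation 3 and 21 without virgin 1 against virgin. The members called against lactation ranged from 0 to 1, the 1 being Rag1 without virgin 1. The members' median ranged from 1.16 to 1.86 after weaning against lactation, from 0.41 (without virgin 1) to 1.78 against virgin, and from -0.71 to 0.37 in lactation against virgin. In that last comparison each member changed sign in some of these runs, from -0.87 to 0.14 for Vpreb1, -1.08 to 0.48 for Vpreb3, -0.87 to 0.18 for Igll1, -0.49 to 0.31 for Dntt, -0.66 to 0.37 for Rag1, -0.25 to 0.13 for Rag2, -0.71 to 0.46 for Ebf1, -0.37 to 0.46 for Pax5 and -0.73 to 0.48 for Cd79a. Rag2 also changed sign after weaning, from -0.18 to 0.24 against lactation and from -0.24 to 0.17 against virgin. No other member changed sign after weaning when 1 array was left out.

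Ebf1 in lactation against virgin became -0.36 without array set 1, -0.0049 after quantile normalization and -0.43 with the set block and without virgin 1, where Pax5 became -0.24. Rag2 after weaning against virgin became 0.0297 without array set 1 and 0.0266 with the set block and without virgin 1. Rag2 and Pax5 lay near or under the dim level, where arrays limit what can be read.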
